A study of Mus musculus with 40 samples.

Results

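The promoters of 50 axon guidance ligands and receptors were examined for H3K4me3 and H3K27me3 in control and K27M oligodendrocyte progenitor cells (OPCs) of the mouse brainstem and telencephalon. The 50 genes, of 21951 protein-coding genes in the annotation, were taken by name from 11 families. These were the EphA receptors (9 genes), EphB receptors (5), ephrin-A ligands (5), ephrin-B ligands (2), class 3 semaphorins (7), plexins (7), neuropilins (2), Slits (3), Robos (3), netrins (2) and the netrin receptors Dcc and Unc5a to Unc5d (5). A gene was scored as marked in a library when a peak overlapped at least 1 bp of the window from 2000 bp upstream to 1000 bp downstream of any of its transcript starts (mm10). Promoter coverage is the share of the bases of all these windows of a gene that lay under a peak. These windows add up to 3000 bp at Epha8 and 43704 bp at Slit2, so percentages of different genes do not compare directly.

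The study asked how the histone mutation H3.3 K27M alters the chromatin of OPCs from 2 brain regions. Cells came from litters of hGFAP-Cre;K27M mice (AMGFAP-Cre;K27M in the labels) at P5 to P7, in which a human GFAP promoter drives Cre and so switches on K27M from the endogenous H3-3a gene in neural stem and progenitor cells and their progeny. Tissue of several animals was pooled by region and genotype, so each library is a pool and not 1 animal. Control OPCs came from littermates of the same breeding. Brainstem cultures 59 and 61 and telencephalon cultures 59, 60 and 61 were each available as control and K27M, which gave 10 libraries per mark and 5 control and K27M pairs, all of undifferentiated cells. Cultures of both tissues share the numbers 59 and 61, and the sources used here do not say whether they came from the same litters, so the 5 pairs may not be fully independent. The telencephalon is the dorsal part with cortex, corpus callosum and hippocampus, and the cells of both genotypes were purified by panning and grown in proliferation medium.

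Guidance cues steer growing axons and migrating cells, OPCs among them, by attraction and repulsion. Ephrins are membrane-bound and signal to Eph receptor tyrosine kinases on contact, class 3 semaphorins are secreted and act through plexins with neuropilins as co-receptors, Slits repel through Robo receptors, and netrins attract through Dcc and repel through Unc5 receptors. H3K4me3 marks active or poised promoters, H3K27me3 is the repressive mark set by Polycomb repressive complex 2, and a promoter that carries both is called bivalent. K27M inhibits this complex, and many developmental genes keep H3K27me3 only at their CpG islands in K27M cells.

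To show the kind of promoter at the ends of the range, the 250 bases upstream of a RefSeq start are given for Ephb4, Epha8 and Efna3, which had the highest H3K27me3 coverage in K27M cells among the genes marked in every library, and for Epha3, which had the highest control coverage among the genes without the mark in K27M cells. RefSeq held promoter entries for 41 of the 50 genes. Sequences (GRCm38.p6) run 5′ to 3′ along the gene's strand and stop before the start, and capitals mark each CG dinucleotide.
Ephb4, chr5:137349859-137350108, plus strand: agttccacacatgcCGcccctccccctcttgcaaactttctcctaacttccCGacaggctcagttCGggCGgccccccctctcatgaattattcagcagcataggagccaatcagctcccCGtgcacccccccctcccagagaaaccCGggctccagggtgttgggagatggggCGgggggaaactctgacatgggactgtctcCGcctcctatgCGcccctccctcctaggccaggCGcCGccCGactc
Epha8, chr4:136956817-136957066, minus strand: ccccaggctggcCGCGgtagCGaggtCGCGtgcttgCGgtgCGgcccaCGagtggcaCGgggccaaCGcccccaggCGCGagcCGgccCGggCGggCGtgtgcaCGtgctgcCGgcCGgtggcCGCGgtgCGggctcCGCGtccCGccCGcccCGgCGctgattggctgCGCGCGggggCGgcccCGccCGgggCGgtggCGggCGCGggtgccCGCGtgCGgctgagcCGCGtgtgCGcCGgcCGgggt
Efna3, chr3:89321769-89322018, minus strand: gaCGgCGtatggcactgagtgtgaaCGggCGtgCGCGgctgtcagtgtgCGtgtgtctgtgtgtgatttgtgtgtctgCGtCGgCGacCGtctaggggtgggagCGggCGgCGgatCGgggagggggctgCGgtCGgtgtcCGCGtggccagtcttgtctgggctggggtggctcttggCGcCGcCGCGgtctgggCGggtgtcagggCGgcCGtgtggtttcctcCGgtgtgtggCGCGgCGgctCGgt
Epha3, chr16:63864176-63864425, minus strand: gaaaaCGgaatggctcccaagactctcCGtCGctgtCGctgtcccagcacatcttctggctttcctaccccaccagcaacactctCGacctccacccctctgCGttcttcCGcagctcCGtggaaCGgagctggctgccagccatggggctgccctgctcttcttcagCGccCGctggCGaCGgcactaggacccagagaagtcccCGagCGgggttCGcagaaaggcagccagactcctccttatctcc
The motif CG, which reads the same on both strands, occurred 12 times at Ephb4, 46 times at Epha8, 31 times at Efna3 and 16 times at Epha3. The median over the same 250 bases of 32851 RefSeq promoters was 6, at least 1 CG was found in 92.1% of them, and 12 or more in 33.5%. A peak of H3K27me3 touched the printed bases in all 10 libraries at Ephb4, Epha8 and Efna3, and in 1 control library at Epha3, where the mark lay mostly downstream. H3K4me3 touched them in 8, 9, 8 and 10 libraries, respectively.

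Libraries differed in strength before any comparison of genotypes. H3K27me3 peak lists held 12715 to 64808 peaks in controls and 4739 to 15753 in K27M, and the K27M list was the shorter in every pair, whereas H3K4me3 lists held 20961 to 31200 peaks. The telencephalon libraries of culture 59 stood apart for both marks. The median of the highest H3K4me3 fold enrichment over input at the marked members was 3.36 in its control and 5.47 in its K27M library, against 10.2 to 71.8 in the other 8. For H3K27me3 these medians were 2.49 and 3.11, against 3.67 to 6.69. Results that rest on culture 59 are therefore given with and without it. Read depth is not in the peak lists, so weak marking below the peak threshold could not be measured. All 7 OPC markers (Pdgfra, Cspg4, Olig1, Olig2, Sox10, Lhfpl3, Gpr17) carried H3K4me3 in all 10 libraries and H3K27me3 in none. H3K4me3 was present in all 10 libraries at 1 of 4 astrocyte, 4 of 5 neuron, 0 of 4 microglia and 1 of 4 endothelial markers. For H3K27me3 in all 10 libraries these counts were 0, 3 (Rbfox3, Slc17a7 and Gad1), 0 and 1 (Cldn5). Csf1r, Aif1, Pecam1 and Tek had no peak of either mark. For the brainstem label, H3K4me3 at Hoxb2 was found in the 4 brainstem libraries and in no telencephalon library.

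H3K4me3 was almost constant across the guidance genes. It was present in all 10 libraries at 44 of 50 genes (88%, against 58% of all protein-coding genes), among them both neuropilins, all 7 plexins, all 3 Robos and all 5 netrin receptors. In the brainstem 48 genes carried it in each of the 4 libraries. In the telencephalon the controls of cultures 59, 60 and 61 had 44, 48 and 49 genes with it and the K27M cultures 46, 48 and 48. The mean difference of K27M minus control over the 5 pairs was 0.2 genes (SD 1.10), and it was −0.25 without telencephalon culture 59. Sema3b, a secreted semaphorin, had no peak of either mark in any library, and Sema3g had H3K4me3 in 1 telencephalon control alone. The other exceptions were Epha1, Epha8, Ephb4 and Slit1, each of which lacked H3K4me3 in 1 or both of the telencephalon culture 59 libraries and had it elsewhere.

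**Figure D1:**
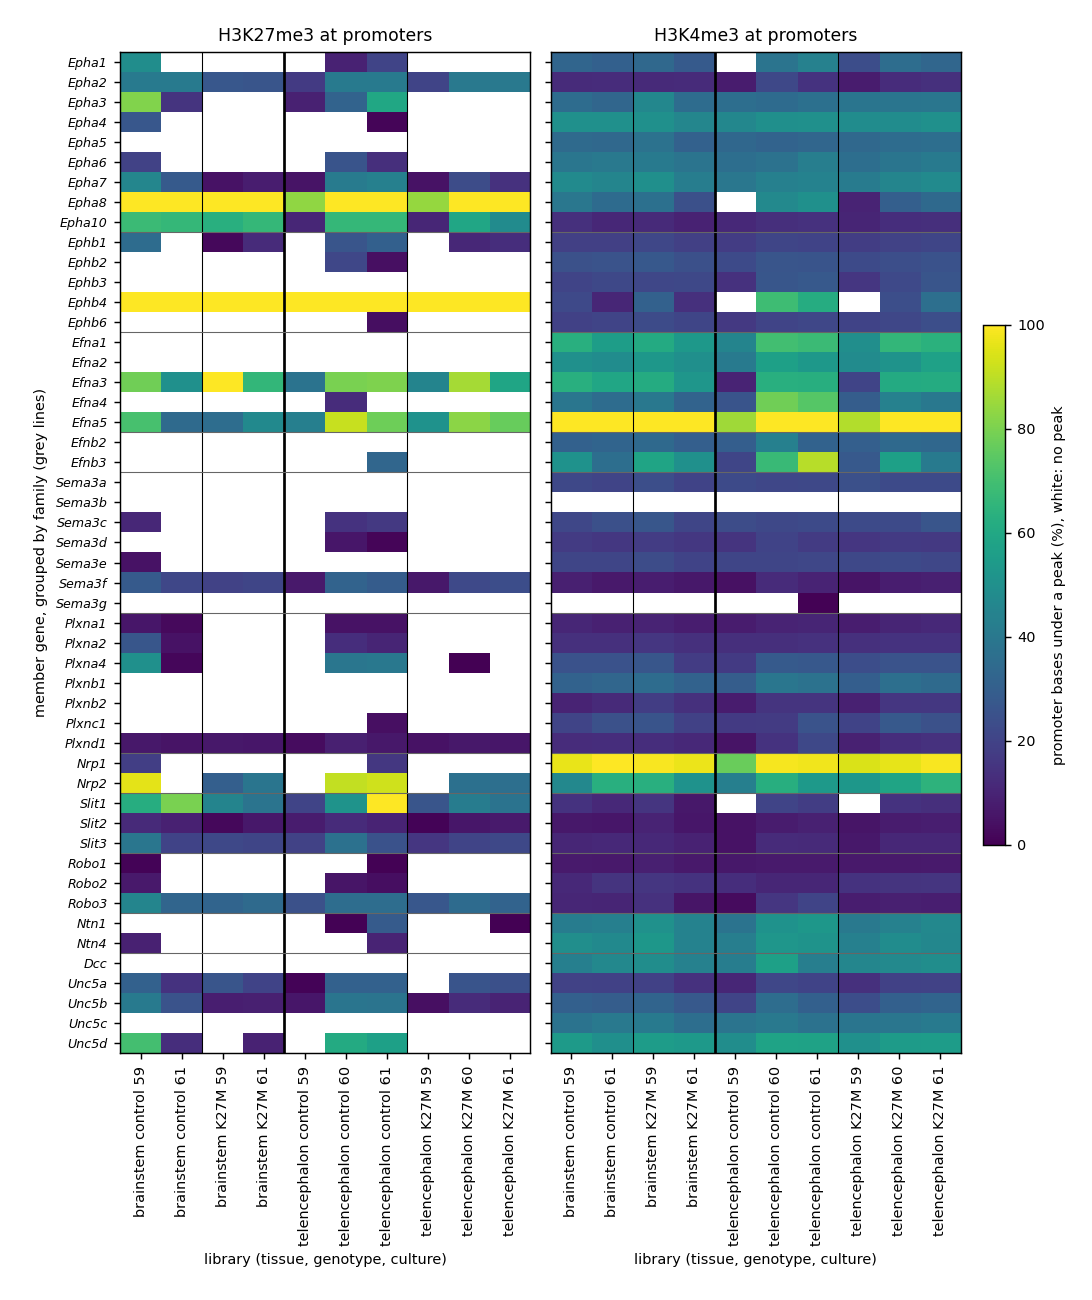
Share of promoter bases (colour, percent) under an H3K27me3 peak (left) or an H3K4me3 peak (right) for the 50 genes (rows, grouped by family) in the 10 libraries of each mark (columns). White cells have no peak; H3K4me3 fills nearly all rows, while H3K27me3 is continuous at 14 genes such as Ephb4 and Epha8 and is limited to control columns at 18 genes such as Epha3.

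In control cells the guidance genes were often bivalent. Bivalency was assigned from consensus peaks, kept where a peak was supported by an overlapping peak in at least 1 more control culture of the tissue. The supporting peak need not touch the promoter. Ephb1 and Nrp2 counted as bivalent in the brainstem with an H3K27me3 promoter peak in control 59 and without one in control 61. In the brainstem 19 genes were bivalent (38%, against 9.32% of protein-coding genes), 29 carried H3K4me3 only, none carried H3K27me3 only and 2 (Sema3b and Sema3g) were unmarked. Genes with H3K4me3 and no single window under both marks counted as H3K4me3 only, whether or not another start had H3K27me3. Plxna2 was among them, although both brainstem controls had an H3K27me3 promoter peak at it. In the telencephalon 20 were bivalent (40%, against 14.5%), 28 carried H3K4me3 only and the same 2 were unmarked. All 19 bivalent genes of the brainstem were bivalent in the telencephalon too, against 94.5% of protein-coding genes bivalent in the brainstem, which is close. Of the 20 bivalent genes of the telencephalon, Epha6 alone (5%, against 39.2%) was not bivalent in the brainstem. The brainstem had 2 control cultures, which both had to agree, and the telencephalon 3, of which any 2 sufficed. The counts of the 2 tissues are thus not on equal terms. No guidance gene had either mark in every control of 1 tissue and in no control of the other, which was also rare among protein-coding genes (0.269% for H3K27me3 in the brainstem and 0.082% in the telencephalon, and 0.0273% and 0.0228% for H3K4me3). The telencephalon count was 20 without culture 59, 13 without culture 60 and 13 without culture 61, and no test compared the shares with those of other genes.

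The bivalent genes of both tissues fell on both sides of most signalling pairs. Among ligands they were the ephrins Efna3 and Efna5, the semaphorin Sema3f and all 3 Slits, Slit1, Slit2 and Slit3. Among receptors they were Epha2, Epha7, Epha8, Epha10, Ephb1, Ephb4, Plxna4, Plxnd1, Nrp2, Robo3, Unc5a, Unc5b and Unc5d. Neither ephrin-B ligand, neither netrin and not Dcc, the attractive netrin receptor, was bivalent in a tissue. Dcc and Unc5c carried H3K4me3 in all 10 libraries and H3K27me3 in none. Ephrin-A genes next to each other on chromosome 3 differed. Efna3 lies 32.8 kb from Efna1 and 10.4 kb from Efna4, and it was marked by H3K27me3 in all 10 libraries, whereas Efna1 had the mark in none and Efna4 in 1 telencephalon control.

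H3K27me3 was found at fewer guidance genes in the K27M library of every pair. In the brainstem 31 and 20 genes carried it in controls 59 and 61, and 17 and 18 in K27M cultures 59 and 61. In the telencephalon 16, 30 and 36 genes carried it in controls 59, 60 and 61, and 14, 18 and 18 in the matched K27M cultures. The K27M counts thus lay in a narrow range of 14 to 18 while the control counts spread from 16 to 36, and the groups overlapped. The mean difference was −9.6 genes (SD 7.27, 5 pairs), next to a mean of −2645 (SD 1608) over all protein-coding genes. When the longer list of each pair was trimmed to its strongest peaks, as many as the shorter list held, the mean difference was −2.2 genes. List length moved with the result, and their part in it was not tested.

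**Figure D2:**
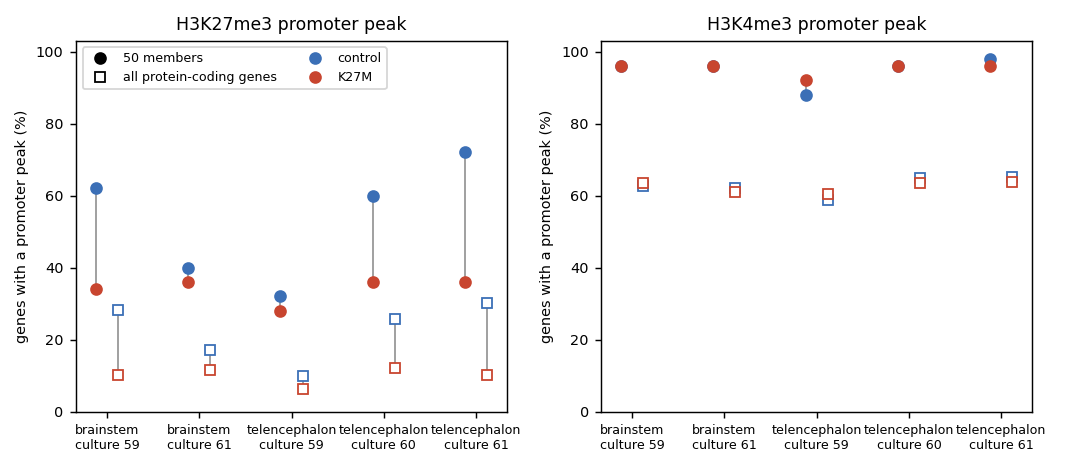
Percent of genes with a promoter peak of H3K27me3 (left) and H3K4me3 (right) in the control (blue) and K27M (red) library of each of 5 culture pairs, for the 50 guidance genes (filled circles) and all protein-coding genes (open squares). The H3K27me3 share of the guidance genes is 32% to 72% in controls and 28% to 36% in K27M, above that of all protein-coding genes in every library.

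Within pairs, the share of control-marked genes that kept H3K27me3 was larger for the guidance genes than for all protein-coding genes each time. It was 54.8% against 35% in brainstem culture 59 and 80% against 61.8% in brainstem culture 61. In the telencephalon it was 87.5% against 60.5% in culture 59, 60% against 47.2% in culture 60 and 50% against 33.9% in culture 61. The means over the 5 pairs were 66.5% (SD 16.4) for the guidance genes and 47.7% (SD 13.4) for all protein-coding genes, as a description with no test. The higher share held in both tissues, and in both groups of genes it was smallest in the pairs with the longest control peak lists.

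At 14 genes (28%, against 5.79% of protein-coding genes) H3K27me3 was called in all 10 libraries. These were Epha2, Epha7, Epha8, Epha10, Ephb4, Efna3, Efna5, Sema3f, Plxnd1, Slit1, Slit2, Slit3, Robo3 and Unc5b. At 12 genes (24%, against 63.5%) it was called in none, namely Epha5, Ephb3, Efna1, Efna2, Efnb2, Sema3a, Sema3b, Sema3g, Plxnb1, Plxnb2, Dcc and Unc5c. In 18 genes (36%, against 22.3%) the mark was called in 1 or more controls and in no K27M culture, and in 6 (12%, against 8.05%), namely Ephb1, Plxna4, Nrp2, Ntn1, Unc5a and Unc5d, in some K27M cultures. No gene had it in K27M cultures alone. In the 8 libraries other than telencephalon culture 59, 15 genes (30%, against 8.23%) carried it throughout, the addition being the netrin receptor Unc5a.

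Among the Eph receptors, Ephb4, an ephrin-B2 receptor best known from blood vessels, had its whole promoter under H3K27me3 peaks. Coverage was 100% in each of the 5 control and 5 K27M libraries. The fold enrichment of its strongest peak was 6.50 and 5.90 in brainstem controls 59 and 61 and 12.8 and 13.1 in the matched K27M libraries, and 2.83, 11.1 and 5.98 in telencephalon controls 59, 60 and 61 against 3.89, 10.3 and 11.2 in K27M. Fold enrichment was thus higher in K27M in 4 of 5 pairs, and telencephalon culture 60 went the other way. At Epha8 coverage was 100% in 8 libraries and 83.3% and 84% in the control and K27M libraries of telencephalon culture 59. The coverage of both genes did not separate the genotypes, but values at or near 100% leave little room for a difference. In the brainstem the peaks at the promoter were shorter in K27M in both pairs. At Ephb4 they were 10331 and 8376 bp in controls 59 and 61 and 5709 and 6077 bp in K27M. At Epha8 they were 8784 and 5694 bp in the controls and 6427 and 4163 bp in K27M.

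The ephrin-A ligands Efna3 and Efna5, which are tethered to the membrane by a lipid anchor, carried H3K27me3 in all 10 libraries. At Efna3 coverage was 78.2% and 50% in brainstem controls 59 and 61 and 100% and 66.4% in their K27M matches, and in the telencephalon 38.1%, 79.9% and 80.7% in controls 59, 60 and 61 against 45.3%, 86.4% and 58.9% in K27M. It was higher in K27M in 4 of 5 pairs, with a mean difference of 6.01 percentage points (SD 16.8, exact permutation of signs, two-sided p = 0.438, adjusted p = 0.712). At Efna5 coverage was 71.1% and 34.8% in the brainstem controls and 35.7% and 47.5% in K27M. In the telencephalon Efna5 had 43.3%, 91.5% and 77.8% in controls 59, 60 and 61 and 51.2%, 82.5% and 76.7% in K27M, so that the genotypes overlapped in both tissues. Efna5 also had H3K4me3 over 85.8% to 100% of its promoter in all 10 libraries.

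Of the semaphorin pathway, 1 ligand and 1 receptor were marked throughout. Sema3f, a repellent that acts through Nrp2, had 28.3% and 21.2% coverage in brainstem controls 59 and 61 and 19.7% and 20.8% in K27M, and 6.66%, 31.8% and 29.1% in telencephalon controls 59, 60 and 61 against 6.61%, 22.2% and 23.7% in K27M. The differences were small in 2 of these pairs and all had the same sign. Plxnd1, a receptor of Sema3e, had 6.46% and 5.27% in the brainstem controls and 6.41% and 6.06% in K27M. Its telencephalon values were 3.26%, 8.71% and 6.45% in controls 59, 60 and 61 and 4.85%, 6.60% and 5.97% in K27M, with a mean difference of −0.053 percentage points (SD 1.40, 5 pairs). The windows of Plxnd1 add up to 12474 bp, and the mark lay at only 1 of their intervals (chr6:115994006-115997005), which lowers these shares. The fold enrichment at Plxnd1 was 2.15 to 11.2 in controls and 3.11 to 13.3 in K27M, and these ranges overlapped.

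All 3 Slit ligands were marked in all 10 libraries, but only 1 of their 3 receptors listed here, Robo3, a divergent Robo needed for midline crossing. Slit1 coverage was 62.5% and 79.7% in brainstem controls 59 and 61 and 45.1% and 38.6% in K27M. In the telencephalon Slit1 had 20.6%, 51.4% and 99.7% in controls 59, 60 and 61 and 26.5%, 42.2% and 38.2% in K27M, which is lower in 4 of 5 pairs. Robo3 coverage was 45.3% and 32.8% in brainstem controls 59 and 61 and 24.8%, 35.6% and 35.6% in telencephalon controls 59, 60 and 61. The matched Robo3 values in K27M were 32.2% and 34.6%, and 27.1%, 35.1% and 31.9%, inside the control range in all 5 libraries. Robo1 and Robo2, the main Slit receptors, had the mark over at most 6.71% of their promoters in 2 and 3 control libraries and in no K27M library. Their windows add up to 20436 and 22626 bp over several starts, which lowers this share. Slit2 and Slit3 had mean coverages of 10.3% and 28.3% in controls and of 4.68% and 20.2% in K27M.

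Unc5b was the netrin receptor marked throughout. Its coverage was 40.9% and 25.6% in brainstem controls 59 and 61 against 8.31% and 8.97% in K27M. In the telencephalon it was 6.05%, 39% and 38.7% in controls 59, 60 and 61 against 4.08%, 12.3% and 10.1% in K27M. Outside telencephalon culture 59 the genotypes did not overlap at Unc5b. Unc5a had 31%, 14.6%, 0.92%, 31% and 31% in the same order of controls and 26.3%, 20%, 0%, 26.1% and 24.5% in K27M.

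**Figure D3:**
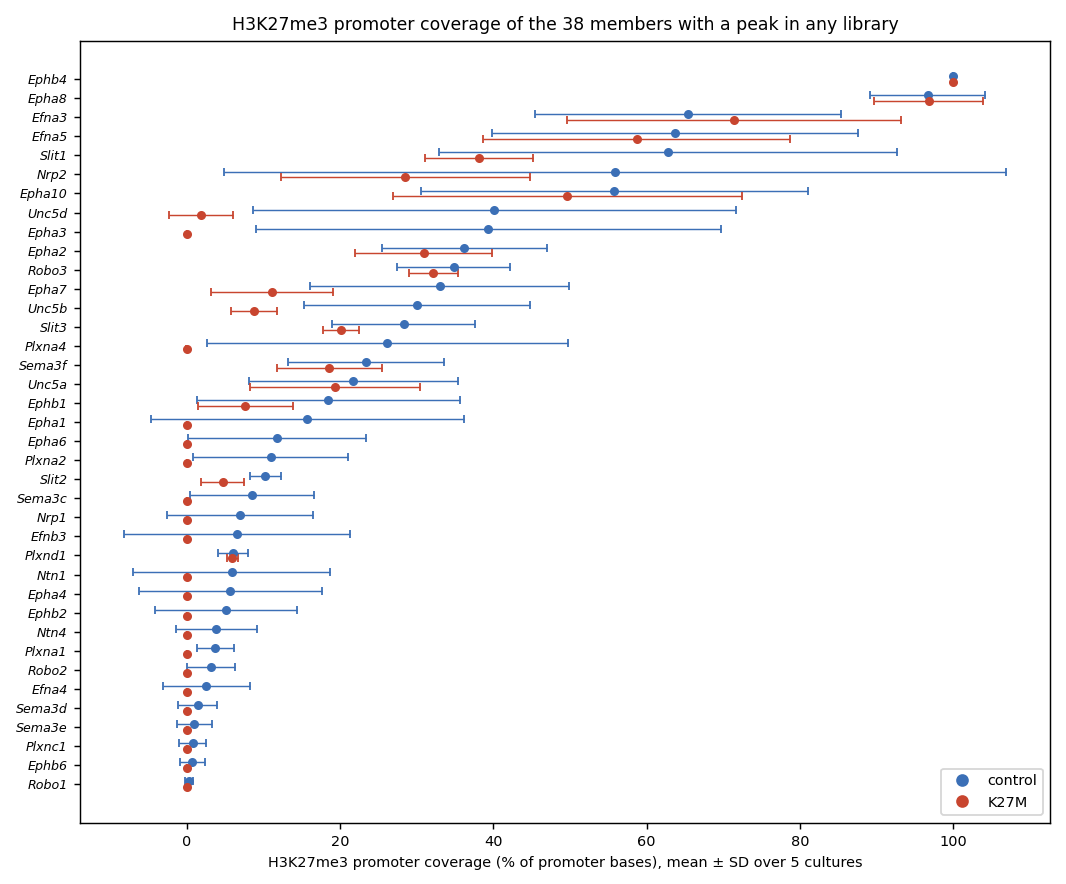
H3K27me3 promoter coverage (percent of promoter bases, mean ± SD over 5 cultures) in control (blue) and K27M (red) for the 38 guidance genes with a peak in any library, ordered by control mean. Ephb4, Epha8 and Efna3 are alike in both genotypes within their SD, while K27M means are 0 for 18 genes, with Epha3 the highest of these in controls (39.3%).

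H3K27me3 was called in every brainstem control at 20 guidance genes. At 15 of them (75%, against 58% of protein-coding genes so marked) it was also called in both K27M cultures, and at 4 (20%, against 31.5%) in neither. In the telencephalon 16 genes carried it in all 3 controls. Of these, 14 (87.5%, against 61.6%) had it in all 3 K27M cultures and 1 (6.25%, against 14.8%), Epha3, in none. With peaks of at least 3-fold enrichment only 2 genes carried it in all 3 telencephalon controls, and 1 of them (50%, against 80.3%) had it in all 3 K27M cultures. The counts of genes without it rest on the weaker control of each tissue. Without telencephalon culture 59, 29 genes carried the mark in the remaining controls, 17 (58.6%, against 41.2%) had it in the remaining K27M cultures and 10 (34.5%, against 46.3%) in neither. Without brainstem culture 61 the corresponding numbers were 31, 17 (54.8%, against 35%) and 14 (45.2%, against 65%). In both tissues, with and without these cultures, the share that kept the mark lay above that of all protein-coding genes. The exception was the 3-fold filter in the telencephalon, which rests on 2 genes. For the brainstem no share of all genes was computed with that filter.

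Epha3, a receptor of the ephrin-A ligands, was the only guidance gene with H3K27me3 in all 5 controls and in no K27M culture, (2%, against 0.761% of protein-coding genes). Coverage was 80.9% and 15.1% in brainstem controls 59 and 61 and 9.28%, 31.8% and 59.5% in telencephalon controls 59, 60 and 61, and 0% in every K27M library. The groups did not overlap, but the control values spread widely and their peaks were weak, with a fold enrichment of 2.25 to 2.56. H3K4me3 covered 33% to 36.8% of the promoter in controls and 35.5% to 46.3% in K27M. Epha3 did not enter the H3K27me3 consensus of either tissue and counted there as H3K4me3 only.

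The other genes with the mark in both brainstem controls and in neither brainstem K27M culture were the class A plexins Plxna1, Plxna2 and Plxna4, signalling subunits of the semaphorin receptors. Plxna4 had 50% and 1.67% coverage in brainstem controls 59 and 61 and 0%, 39.2% and 40% in telencephalon controls 59, 60 and 61. In K27M it was 0% everywhere except in telencephalon culture 60, with 0.1%. Plxna2 had 26.7% and 4.77% in the brainstem controls and 0%, 12.9% and 10.4% in the telencephalon controls, and 0% in all K27M libraries. Plxna1 had 6.09% and 2.64% in the brainstem controls, 0%, 4.82% and 5.02% in the telencephalon controls and 0% in all K27M libraries. All 3 plexins had a peak in every control but telencephalon culture 59, where each lacked one. H3K4me3 was present at all 3 in all 10 libraries.

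The remaining 15 genes marked in controls alone had weak peaks and a low mean coverage over the 5 controls. They were Epha1, Epha4, Epha6, Ephb2, Ephb6, Efna4, Efnb3, Sema3c, Sema3d, Sema3e, Plxnc1, Nrp1, Robo1, Robo2 and Ntn4. Mean control coverage ran from 0.327% at Robo1 to 15.7% at Epha1, and the fold enrichment of the strongest peak from 1.93 at Efnb3 to 3.52 at Nrp1. These means include controls without a peak, and single libraries could be higher, as with 49% at Epha1 and 27% at Epha4 in brainstem control 59. Only Epha1, Epha6, Sema3c and Robo2 among them had a peak in 3 of 5 controls, and the others had one in 1 or 2. Of the genes marked in some K27M cultures, Unc5d, a repulsive netrin receptor, had 70% and 12.9% in brainstem controls 59 and 61, 0%, 61.1% and 56.7% in telencephalon controls 59, 60 and 61, and 9.38% in brainstem K27M culture 61 alone. Ntn1, the founding netrin, had 0.533% and 28.8% in telencephalon controls 60 and 61, and 0.016% in telencephalon K27M culture 61.

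The mark was called in more K27M than control cultures at 2 genes (4%, against 0.925% of protein-coding genes), both in the brainstem and both by the absence of a peak in control 61. Ephb1, a receptor of ephrin-B ligands, had 35.5% and 0% in brainstem controls 59 and 61 and 2.04% and 12.2% in K27M. In the telencephalon Ephb1 had 0%, 26.2% and 30.6% in controls 59, 60 and 61 and 0%, 11.1% and 13% in K27M. Nrp2, the co-receptor for Sema3f, had 95.8% and 0% in the brainstem controls and 30.3% and 38.7% in K27M, and 0%, 90.9% and 92.7% in the telencephalon controls against 0%, 36.9% and 36.7% in K27M. At both genes K27M was the lower of the pair in 3 pairs, the higher in 1 and equal at 0 in telencephalon culture 59. No guidance gene had it in more K27M than control cultures of the telencephalon, where 0.383% of protein-coding genes did.

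Gene by gene, the signs of the 5 paired differences in coverage were permuted exactly (two-sided), and the design allows no p below 0.063. It was lower in K27M in 5 of 5 pairs at 5 of the 38 genes with a peak in any library (13.2%, against 12.7% of the 8005 protein-coding genes tested), which is close to the background. The 5 were Epha3, Epha7, Sema3f, Slit2 and Unc5b, each with p = 0.063 and an adjusted p of 0.413 (Benjamini-Hochberg over all genes tested, exact permutation test), so none passed correction. Coverage was higher in 5 of 5 pairs at 0 genes (background 0.0999%). Without telencephalon culture 59 coverage was lower in all 4 remaining pairs at 11 of 38 genes (28.9%, against 27.5%), again close to the background. Epha7 and Slit2 were singled out after their values were seen. Epha7, an ephrin-A receptor, had 46% and 28.3% in brainstem controls 59 and 61 against 4.78% and 8.13% in K27M, and 5.42%, 41.7% and 43.6% in telencephalon controls 59, 60 and 61 against 4.89%, 23.4% and 14.4% in K27M. Slit2 had 12.1%, 9.23%, 7.58%, 12.4% and 9.97% in the same controls and 2.25%, 6.57%, 1.05%, 6.23% and 7.29% in K27M, where all values were lower than all those of the controls.

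At the 14 genes marked in every library, H3K27me3 domains were shorter in K27M in every pair. The median length of the peaks that touched a promoter was 7370 and 4972 bp in brainstem controls 59 and 61 and 4482 and 4411 bp in K27M. In the telencephalon it was 2943, 7317 and 10973 bp in controls 59, 60 and 61 and 2409, 5412 and 4317 bp in K27M. The median share of the gene body outside promoters that lay under H3K27me3 was 16.9% and 5.74% in the brainstem controls and 4.73% and 3.63% in K27M. The corresponding shares in the telencephalon were 2.77%, 13.1% and 15.1% in controls and 2.33%, 6.32% and 4.00% in K27M. The mark thus covered less of the gene beyond the promoter in each K27M library than in its control, and the gap was narrowest in telencephalon culture 59.

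The height of these domains did not follow their length. The median of the highest fold enrichment was 5.83 and 5.44 in the brainstem controls and 6.89 and 7.78 in K27M. It was 2.54, 8.09 and 5.53 in telencephalon controls 59, 60 and 61 and 3.11, 8.06 and 7.57 in K27M, which is higher in K27M in 4 of 5 pairs. The median over all H3K27me3 peaks of a library was also higher in K27M in each pair (mean 2.49 in controls and 2.88 in K27M). The same 2 patterns were present in the 1272 protein-coding genes marked in all 10 libraries. Their median peak length was 7642 bp (SD 2713, n = 5) in controls and 4585 bp (SD 945) in K27M, and their median fold enrichment was 5.72 (SD 2.13) and 7.04 (SD 2.24). Both patterns were thus shared with the other genes of that class. Fold enrichment was relative to each library's own input and was not scaled to the Drosophila spike-in chromatin, so it does not compare amounts between genotypes.

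**Figure D4:**
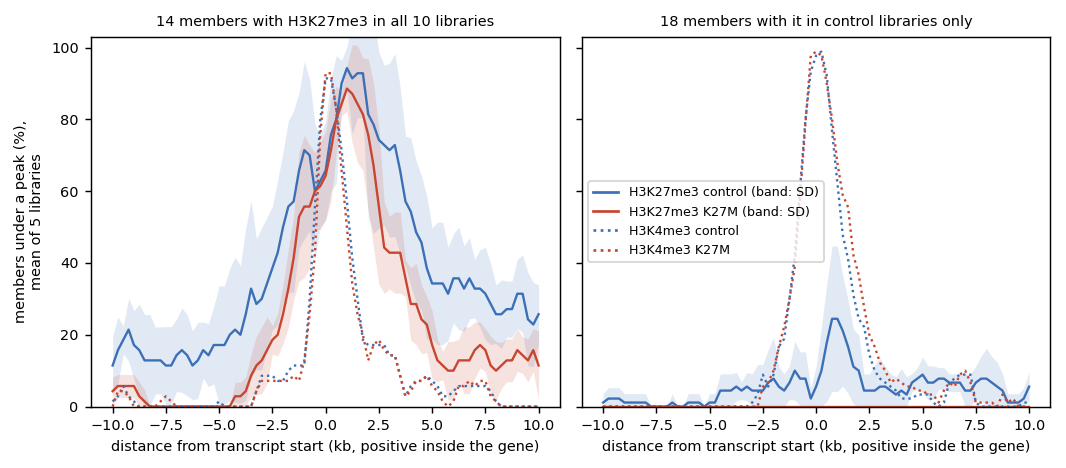
Percent of genes whose position at a given distance from the transcript start (x axis, kb, positive inside the gene) lay under an H3K27me3 peak (solid lines, band: SD) or an H3K4me3 peak (dotted), as the mean of 5 control (blue) or 5 K27M (red) libraries. In the 14 genes marked in every library (left) H3K27me3 at 5 kb from the start is at 0% upstream and 17.1% inside the gene in K27M, against 17.1% and 34.3% in controls; in the 18 genes marked in controls alone (right) few positions are covered in controls and none in K27M.

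Around the start itself the 2 genotypes were similar at these 14 genes. They were chosen by a promoter peak in every library of both genotypes, which favours similarity near the start, so the values are a description. For each of the 14 genes the start with H3K4me3 in most libraries was taken. The start lay under H3K27me3 in 65.7% (SD 13.7, n = 5 libraries) of the 14 genes in controls and 64.3% (SD 12.4) in K27M. At 5000 bp inside the gene these shares were 34.3% (SD 15.5) and 17.1% (SD 9.58). At 5000 bp upstream 3 and 1 genes were covered in brainstem controls 59 and 61, 0, 2 and 6 in telencephalon controls 59, 60 and 61, and 0 in all 5 K27M libraries. In both genotypes the share was higher 1000 bp into the gene than at the start, near which H3K4me3 had its maximum.

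In 4 of the 5 control libraries, median fold enrichment was 2.30 to 2.59 at the genes with the mark in controls alone and 5.44 to 8.09 at those with it throughout, and in telencephalon control 59 it was 2.33 at the only such gene with a peak (Epha3) and 2.54 at the 14 genes. In brainstem control 59 the median of the highest fold enrichment was 5.83 at the 14 genes marked in every library and 2.59 at the 12 of the 18 control-only genes with a peak there. In telencephalon control 61 the medians were 5.53 at the 14 genes and 2.30 at 16 control-only genes, with peak lengths of 10973 and 837 bp. In all protein-coding genes the fold enrichments in these 2 libraries were 5.95 and 2.44, and 6.10 and 2.44, for the same classes. These classes were set by the same peak calls and the values are a description.

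Many of the genes have several starts, and the marks were not spread evenly over them. The promoter windows of the 50 genes merged into 131 intervals, and 34 genes had more than 1. H3K4me3 was called in any library at 62 intervals and H3K27me3 at 46, of which 39 also carried H3K4me3. In K27M cultures H3K27me3 was left at 23 intervals, all but 2 of them with H3K4me3. The exceptions were an internal start of Epha10 (chr4:124883799-124886798), marked in all 10 libraries, and one of Sema3f (chr9:107704557-107707556), marked in all 10. At Plxna2 the 4 control peaks lay at an internal start without H3K4me3 in any library (chr1:194802710-194805709), and only 1 control had H3K27me3 at the upstream start that carried H3K4me3 in all 10 libraries (chr1:194616218-194620824). Slit1 had a second interval with the mark in 3 controls and no K27M culture (chr19:41607531-41610530), while its upstream interval kept it in all 10 libraries.

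CpG density was taken from the reference sequence as the highest number of CG dinucleotides per 100 bp within 500 bp on both sides of any start of a gene. The median was 8.45 (range 5.1 to 12.3) in the 14 genes marked in every library, 10.3 (6.8 to 11.6) in the 6 marked in some K27M cultures, 5.9 (4.3 to 13.9) in the 18 marked in controls alone and 7.75 (1.4 to 12.2) in the 12 never marked. Over all protein-coding genes the medians of the same classes were 6.7, 5.8, 3.4 and 5.1. In the guidance genes as in all genes the control-only class was the lowest, and the ranges of the classes overlapped widely. Epha8, with the densest of the printed sequences, belongs to the class marked in every library.

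**Figure D5:**
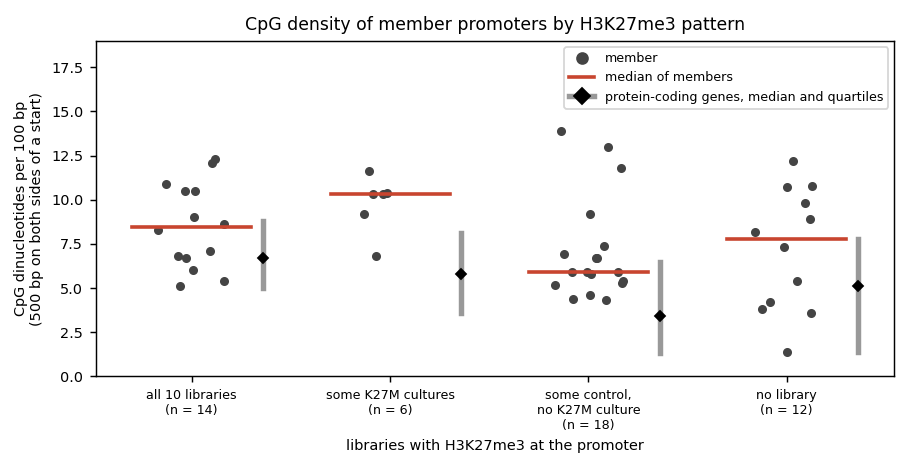
CpG dinucleotides per 100 bp around the start (y axis) of the 50 guidance genes (points; red line, median) by the libraries in which H3K27me3 was called, beside the median and quartiles of all protein-coding genes in the same class (diamond and grey bar). The control-only class has the lowest median (5.9) and overlaps the other classes.

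Genes that act beside or downstream of these ligands and receptors were counted in the same way. Of 30 other guidance ligands, receptors and adhesion molecules (class 4 to 7 semaphorins, netrin-G, repulsive guidance molecules, Flrt and Dscam genes among them), 2 (6.67%) had it in all 10 libraries, 7 (23.3%) in controls alone and 16 (53.3%) in none. Of 41 intracellular effectors, such as collapsin response mediator proteins and cytoskeletal regulators, 3 (7.32%) had it in all 10 libraries, 8 (19.5%) in controls alone and 24 (58.5%) in none. Both lists were close to the 5.79% of all protein-coding genes for the mark in every library. H3K4me3 was present in all 10 libraries at 24 of the 30 and at 40 of the 41 genes. No test compared the lists.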

How the data were processed

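ChIP-seq peak lists of H3K27me3 and H3K4me3 from 20 libraries (4 groups of tissue and genotype) were used. Inputs, ATAC-seq, RNA-seq and signal tracks were not used here. Per the labels and methods, reads were aligned by the authors with BWA (0.7.17-r1188, mm10), and MACS2 (2.2.7.1) called the peaks of each library over its input. The deposited lists give for each peak its coordinates, a ratio (fold enrichment over input), the −log10 of p and q and an integer score, which was not used. They hold no read counts and no spike-in scaling, so the read-count test of the study could not be run, and precision is limited by the 5 pairs.

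Overlap, coverage and consensus were computed in Python 3.11.15 (numpy 2.4.6, scipy 1.17.1, figures with matplotlib 3.10.9). Promoters came from GENCODE M21 (the authors used M25), 132758 windows of 55450 genes. Consensus followed the rule of the study's methods, rewritten here, with stringent and weak p of 1e-08 and 1e-04 for H3K27me3 and 1e-10 and 1e-06 for H3K4me3 and at least 2 cultures. Coverage of single genes was compared within cultures, whose K27M and control samples the study treats as matched, by exact permutation of the signs of the differences (two-sided, 32 arrangements), with Benjamini-Hochberg adjustment over 8005 genes. As a check of the pairing, deviations from group means correlated within cultures with r of −0.111 in the brainstem and of 0.590, 0.370 and −0.075 in telencephalon cultures 59, 60 and 61 (H3K27me3), and of 0.062 and 0.756, 0.440 and 0.548 (H3K4me3), across promoters. The functions were tested on simulated data.

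The members and lists were chosen with earlier results of these data known. Genes given with values in every library were those with H3K27me3 in every control and no K27M culture of a tissue, in more K27M than control cultures, in every control of 1 tissue and none of the other, and up to 2 per group of families with the highest K27M coverage among those marked in all 10 libraries. Alternatives were stricter peaks, wider overlap, a narrower window, protein-coding transcripts, equal peak numbers, a peak in every control, no pairing and each culture left out. Counts without a culture, with their shares of all genes, were added after seeing the data.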

Additional observations from a re-analysis of the deposited data

Results flagged for a closer look

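The K27M minus control difference of H3K4me3 promoter coverage at Plxna1 had opposite signs in the 2 tissues in every pair. It averaged −0.906 percentage points in the brainstem (2 pairs) and 0.680 in the telencephalon (3 pairs), a difference of −1.59 percentage points that was not tested. Plxna1 was the only guidance gene with such a pattern in promoter coverage of either mark. How many of all protein-coding genes share the pattern was not counted, so it cannot be called particular to Plxna1.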

How the results depend on the processing

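The peak lists show presence above a threshold and not amount, and a peak missed in a weak library cannot be told from a promoter without the mark. With peaks of at least 3-fold enrichment, the mean difference in genes with H3K27me3 was −2.2, that with H3K4me3 was 2.2, and the genes without H3K27me3 in K27M numbered 2 in the brainstem and 0 in the telencephalon. With that filter 1 gene kept it throughout the telencephalon and 1 was lower in 5 of 5 pairs. With equal peak numbers in each pair the mean difference in H3K27me3 was −2.2, 1 gene lacked it in brainstem K27M and 0 in telencephalon K27M, and 2 were lower in 5 of 5 pairs. With a −log10 q of at least 3 these were 0 in the telencephalon and 2 in 5 of 5 pairs. An overlap of 500 bp left 2 genes without it in brainstem K27M and 0 in telencephalon K27M, and a window of 500 bp on both sides left 0 in the telencephalon and 1 lower in 5 of 5 pairs. Protein-coding transcripts alone gave 3 lower in 5 of 5 pairs. A peak required in every control gave 13 bivalent genes in the telencephalon. Shares of all protein-coding genes were not computed under most of these settings. A shift of the guidance genes alone thus cannot be told from a general one.

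Leaving out each culture gave −11.5 to −7.5 for the H3K27me3 difference and −0.25 to 0.5 for H3K4me3, 13 to 20 bivalent genes in the telencephalon, 4 to 14 and 1 to 10 genes without H3K27me3 in brainstem and telencephalon K27M, 16 to 17 and 14 to 17 with it throughout, and 5 to 11 lower in every pair. With 1 brainstem control left no consensus could be formed, so this was not run for bivalency there. With no replicate block, 4 genes had a lower coverage at p up to 0.05 (exact permutation of labels within tissues, unadjusted), against 5 at the smallest p with the pairing. Apart from the shares given above, those of all protein-coding genes were not computed with a culture left out. The cause of these shifts was not tested.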
